A study of Mus musculus with 10 samples.

Results

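A set of 10 genes of cerebellar granule and Purkinje cells, the principal neurons of the cerebellum, was followed through whole-brain transcriptomes of neonatal mice. The set was chosen by symbol: 7 genes of the granule cell lineage (*Atoh1*, *Barhl1*, *Zic1*, *Zic2*, *Neurod1*, *Cbln1* and *Cbln3*) and 3 genes of Purkinje cells (*Pcp2*, *Pcp4* and *Car8*). All 10 were present among the 18444 genes of the table, and all 10 passed the filter on low values that left 17020 genes for testing. The mice were male C57BL/6N pups at postnatal day 3. The HT group held 5 mice heterozygous for *Arid1b*, a gene for a subunit of the BAF chromatin remodelling complex, and the WT group held 5 wild-type mice. Per the study's methods, the allele carries a CRISPR deletion at exon 5, present in all cells, that truncates the protein, and HT pups were born to HT fathers and WT mothers. Each mouse gave 1 library of polyadenylated RNA from the whole brain. Mothers reared HT and WT pups together, but nothing in the labels ties a library to a litter or a day, so the p-values measure the spread between these animals as sampled.

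In the first postnatal days the mouse cerebellum is still being built. Granule cell progenitors divide in the external granule layer under the control of the basic helix-loop-helix factor *Atoh1* and of sonic hedgehog, which Purkinje cells secrete, and their daughters leave the cell cycle, switch on *Neurod1* and move inward to become granule neurons. Purkinje cells are already postmitotic at birth, and they receive granule cell synapses that the secreted cerebellins hold together. Several of the genes are also used elsewhere in the brain: *Zic1* and *Zic2* in dorsal midline tissue, septum and meninges, *Neurod1* and *Cbln1* in forebrain neurons, and *Pcp4* in many forebrain neurons. In a bulk sample, fewer cells of a type and less RNA per cell cannot be told apart.

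Promoter sequences are shown for a granule gene and for the Purkinje genes *Pcp2* and *Pcp4*, since most of the set moved together from brain to brain and *Pcp4* did so least. The RefSeq promoter table (GRCm38.p6) held an entry for 7 of the 10 genes, all but *Zic2*, *Cbln1* and *Car8*. The 250 bases upstream of the annotated start were searched on both strands for 3 motifs that do not overlap each other in letters: the E-box forms CAGCTG, which is its own complement, and CAGATG, which reads CATCTG on the other strand, of the class read by basic helix-loop-helix factors such as *Atoh1* and *Neurod1*, and AGGTCA, which reads TGACCT on the other strand, the core motif of nuclear receptors such as *Rora*. Capitals mark the matches, and positions count back from the start site. *Barhl1* (chr2:28916669-28916918, minus strand) held CAGCTG at -99 and TGACCT at -28. *Pcp2* (chr8:3625548-3625797, minus strand) held CAGATG at -100 and AGGTCA at -12. *Pcp4* (chr16:96467356-96467605, plus strand) held TGACCT at -164.
Barhl1: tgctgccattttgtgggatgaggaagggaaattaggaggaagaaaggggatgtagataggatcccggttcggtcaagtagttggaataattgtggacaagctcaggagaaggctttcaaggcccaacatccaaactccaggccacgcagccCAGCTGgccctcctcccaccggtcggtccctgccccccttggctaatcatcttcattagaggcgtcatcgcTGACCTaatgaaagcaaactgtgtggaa
Pcp2: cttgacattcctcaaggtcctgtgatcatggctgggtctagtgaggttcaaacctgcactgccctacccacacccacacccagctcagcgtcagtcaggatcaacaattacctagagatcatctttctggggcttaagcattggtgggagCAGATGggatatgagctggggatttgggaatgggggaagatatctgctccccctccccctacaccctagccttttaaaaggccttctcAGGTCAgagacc
Pcp4: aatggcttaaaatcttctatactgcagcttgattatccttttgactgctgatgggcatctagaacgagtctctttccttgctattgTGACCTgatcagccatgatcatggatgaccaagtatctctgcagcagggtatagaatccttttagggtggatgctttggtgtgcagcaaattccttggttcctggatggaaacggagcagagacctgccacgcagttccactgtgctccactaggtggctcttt
*Atoh1*, *Zic1*, *Neurod1* and *Cbln3* held none of these letters in this window. Of all 32851 promoters of that length in the table, 13% held CAGCTG, 14.4% held CAGATG or CATCTG and 14.0% held AGGTCA or TGACCT, so a match is a description of the sequence and not a site.

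The libraries were alike in size, with totals of 27.2 M to 29.0 M normalised read counts, and pairs of libraries had Pearson correlations of 0.973 to 0.988 on the log2 scale. A normalised read count is the authors' estimate of the reads of a gene divided by a size factor for the library. The library HT 4 stood apart, since the median absolute deviation of its log2 values from the gene means was 0.209, and that of the other 9 was 0.0772 to 0.108. *Arid1b*, the targeted gene, averaged 2101 ± 343 in the HT mice and 3335 ± 203 in the WT mice (SD, n = 5 each) with no overlap, as the genotype labels have it. Even so, in the limma comparison given below its adjusted p was 0.390 with all libraries and 0.00025 without HT 4.

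The progenitor factor *Atoh1* (ENSMUSG00000073043; GRCm38 chr6:64729125-64731245, plus strand) was scarce and varied widely. Its normalised read count was 38.5, 19.9, 20.4, 64.1 and 2.94 in HT 1 to HT 5, and 37.0, 14.6, 44.1, 33.5 and 11.5 in WT 1 to WT 5. HT held both the highest library (HT 4) and the lowest (HT 5), and the WT range lay inside the HT range. *Barhl1* (ENSMUSG00000026805; chr2:28907679-28916668, minus strand), a homeobox factor of migrating granule precursors, was at 484, 346, 426, 621 and 277 in HT 1 to HT 5 and at 505, 355, 510, 369 and 467 in WT 1 to WT 5. HT 4 and HT 5 again held the extremes.

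The zinc finger factors *Zic1* and *Zic2*, which keep granule precursors in a dividing state, were abundant. *Zic1* (ENSMUSG00000032368; chr9:91358058-91365810, minus strand) had normalised read counts of 4369, 3192, 3950, 4876 and 2902 in HT 1 to HT 5 and of 4829, 4140.1, 4842, 4249 and 3771 in WT 1 to WT 5. HT 2 and HT 5 were below every WT library and HT 4 was above every one of them. *Zic2* (ENSMUSG00000061524; chr14:122475435-122479852, plus strand) ranged from 815 (HT 5) to 1577 (HT 4) in HT and from 1010.2 (WT 2) to 1334 (WT 1) in WT.

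Genes of the differentiating granule neuron had their extremes in more varied libraries. *Neurod1* (ENSMUSG00000034701; chr2:79452521-79456751, minus strand) ranged from 559 in HT 5 to 988 in HT 4 and, among WT, from 663 in WT 2 to 1153 in WT 3. *Cbln1* (ENSMUSG00000031654; chr8:87468405-87472609, minus strand), the secreted bridge between parallel fibres and Purkinje dendrites, ranged from 1764 to 2665 in HT and from 1761 to 2141 in WT. Its lowest library was WT 2, by a small margin over HT 5. *Cbln3* (ENSMUSG00000040380; chr14:55878913-55884392, minus strand), a partner of *Cbln1* found in mature granule cells, was scarce at this age, at 34.5 to 71.2 in HT and 39.8 to 73.2 in WT.

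Among the Purkinje genes, *Pcp2* (ENSMUSG00000004630; chr8:3623371-3625545, minus strand), a modulator of G protein signalling found almost solely in Purkinje cells and retinal bipolar cells, varied most. Its normalised read count was 85.6, 27.6, 49.8, 122.3 and 0.279 in HT 1 to HT 5, and 105.7, 22.6, 108.4, 71.5 and 55.8 in WT 1 to WT 5. HT 5 held less than 1 normalised read of *Pcp2*, while every other library held at least 22.6. *Car8* (ENSMUSG00000041261; chr4:8143362-8239041, minus strand), a catalytically silent carbonic anhydrase relative that binds the IP3 receptor, was at 1408, 1023, 1317, 1427 and 627 in HT 1 to HT 5 and at 1514, 1029.9, 1459, 1345 and 1039 in WT 1 to WT 5. HT 5 was below every other library, and the other 4 HT libraries overlapped the WT range.

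*Pcp4* (ENSMUSG00000090223; chr16:96467606-96525793, plus strand), a small calmodulin regulator, did not share the low value of the other Purkinje genes in HT 5. It was at 2042, 2088, 2324, 2996 and 2137 in HT 1 to HT 5 and at 2086, 2017, 1978, 1843 and 2041 in WT 1 to WT 5. The library that was nearly without *Pcp2* was thus unremarkable for *Pcp4*, and 4 of the 5 HT libraries were above the highest WT library.

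**Figure D1:**
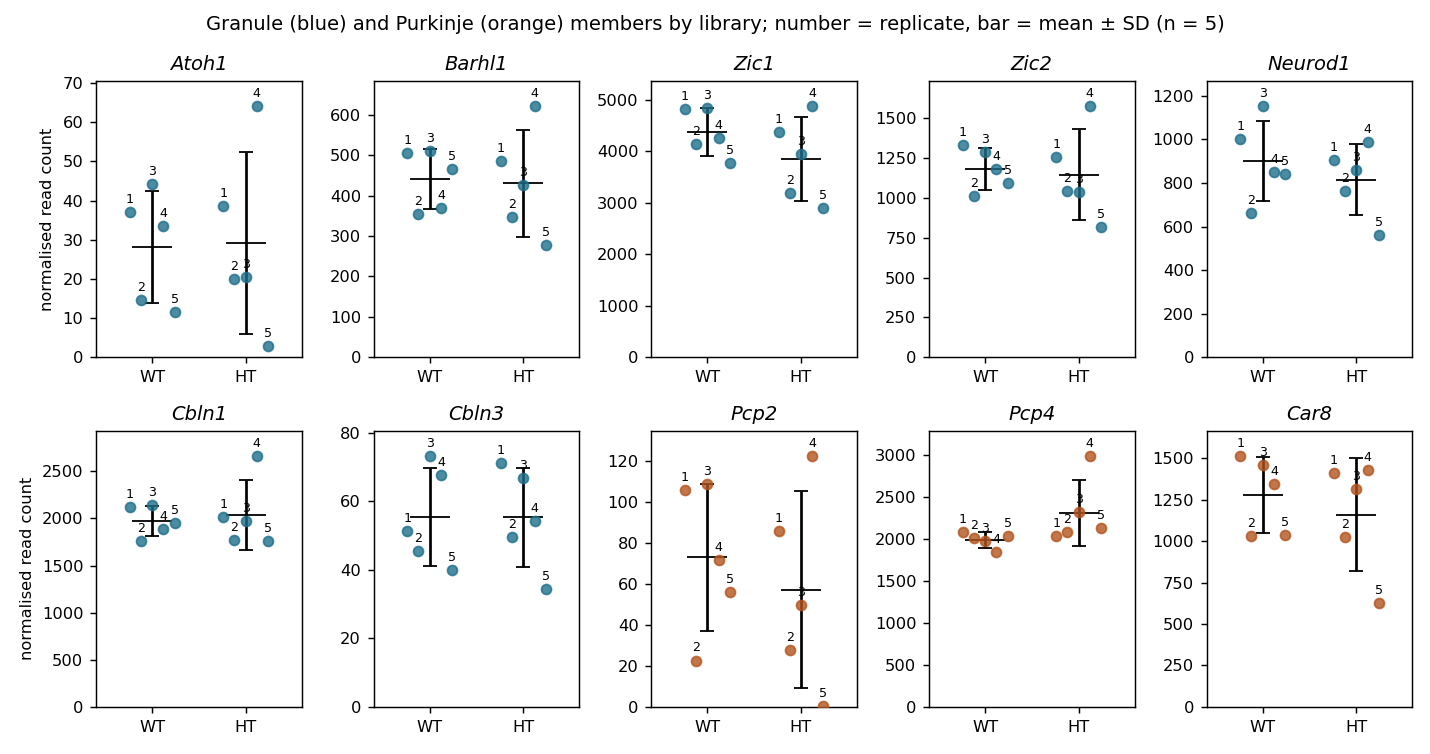
Normalised read count (linear axis from 0) of each gene in each library, WT left and HT right, with the replicate number above each point and a bar for the mean ± SD (n = 5 per group). HT 4 was the highest of the 10 libraries for 7 genes and HT 5 the lowest for 8, and the groups overlap in every panel.

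The same few libraries carried the extremes of most of the set. HT 5 was the lowest of the 10 libraries for 8 of the 10 genes, and HT 4 the highest for 7 of the 10. The matching shares over all genes tested were not computed, and HT 4 had the largest median absolute deviation over all genes (0.209). The median absolute deviation of HT 5 was 0.0888. Whether these counts set the genes apart from other genes was thus not tested. Within WT, WT 2 was the lowest library for 6 genes and WT 5 for 3, while WT 3 was the highest for 7 genes and WT 1 for the other 3. The spread differed greatly between genes. The SD of log2(value + 1) over the 10 libraries was 1.96 for *Pcp2* and 1.17 for *Atoh1*, above the SD of 99.6% and 99.2% of the genes tested, against a median of 0.158 over all genes. The values of *Car8*, *Cbln3*, *Barhl1* and *Neurod1* were 0.39, 0.36, 0.34 and 0.30, and *Cbln1* (0.18) and *Pcp4* (0.19) were close to the median gene. The spread did not come from HT alone: in WT the SD was 0.90 for *Pcp2* and 0.83 for *Atoh1*, above 98.6% and 98.1% of genes. *Pcp4* in WT had an SD of 0.068, smaller than that of most genes (22.3% of genes lay below it).

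**Figure D2:**
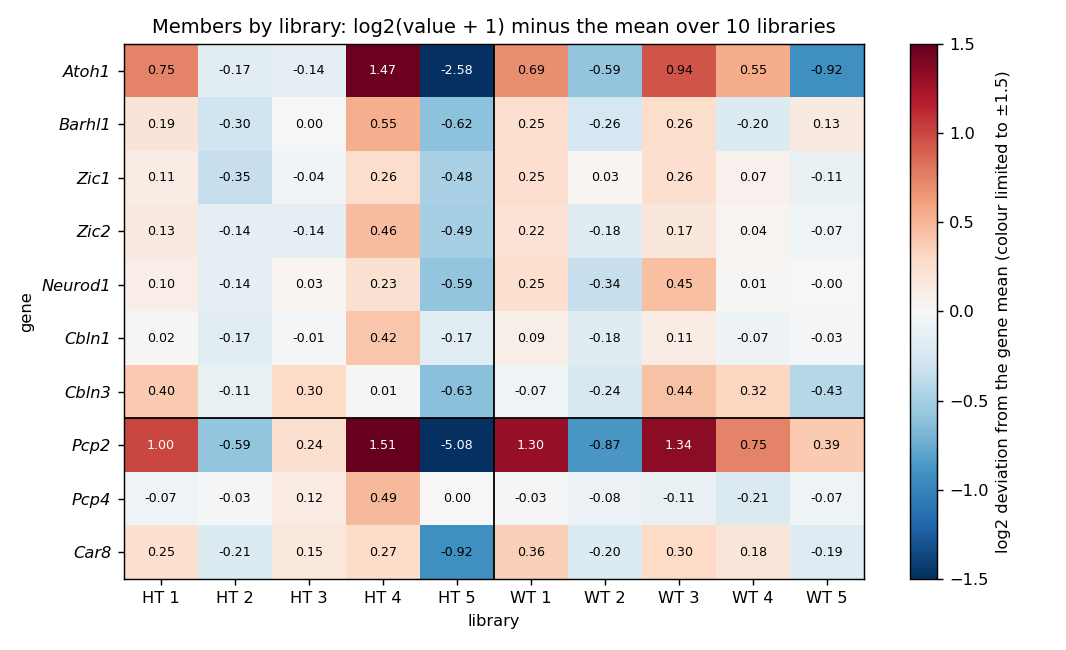
Each cell gives log2(value + 1) of a gene (row) in a library (column) minus the mean of that gene over the 10 libraries, with the colour limited to ±1.5. The HT 5 column is negative for 9 of the 10 genes, down to -5.08 for *Pcp2*, while *Pcp4* stands at 0.00 there.

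Levels were compared between genes only per length, as the normalised read count per kb of the longest annotated transcript. On that scale *Pcp4* was by far the highest in WT, at 3109 ± 144 (SD, n = 5), followed by *Zic1* at 779 ± 82.7 and *Cbln1* at 704 ± 57.1. *Zic2* (485 ± 54.9), *Car8* (332 ± 59.8) and *Neurod1* (330.4 ± 67.7) formed the middle, and *Barhl1* was at 120.3 ± 20.3. The lowest were *Pcp2* (45.3 ± 22.4), *Atoh1* (13.3 ± 6.77) and *Cbln3* (11.4 ± 2.95). The neighbours *Zic1* and *Cbln1*, *Car8* and *Neurod1*, *Pcp2* and *Atoh1*, and *Atoh1* and *Cbln3* had overlapping WT ranges, and the written order held in 6, 6, 9 and 5 of the 10 libraries. All other neighbours kept their order in 10 of 10 libraries. With the median transcript length in place of the longest, 8 of the 10 ranks were the same, and *Atoh1* and *Cbln3* changed places.

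HT was then compared with WT, which asks whether loss of 1 *Arid1b* allele moved cerebellar transcripts. No gene of the set passed: 0 of 10 had an adjusted p under 0.05 in limma, as did 0% of the 17020 genes tested. An unadjusted p under 0.05 was found for 1 of the 10, *Pcp4*, and for 3.41% of all genes. The groups were free of overlap for 0 of the 10, against 0.629% of all genes. The estimates were lower in HT for 8 genes and higher for 2 (*Cbln1* and *Pcp4*), and lower for 9123 of all 17020 genes tested. *Atoh1*, lower in HT on the log2 scale, had mean normalised read counts of 29.2 in HT and 28.1 in WT. The limma adjusted p was 1.00 for each of the 10. On simulated libraries of the same size, the same fit called 75% of 100 genes with a 2-fold change. It called 59% of 100 with a 1.5-fold change. Every gene was simulated with its own spread, and the changed genes were picked at random. The shares are therefore not those of genes as variable as *Pcp2* or *Atoh1*. Each gene was simulated independently, without deviations shared by the genes of a library, so these shares do not give the power in the real libraries. There *Arid1b* itself, at a log2 fold change of -0.68, was not called (unadjusted limma p 2.3e-05, adjusted 0.390).

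The 95% confidence intervals set what these data allow for each gene. *Cbln1*, the most steady of the granule genes, had a log2 fold change of 0.03 ± 0.10 (SE), with an interval from -0.19 to 0.26. *Zic1* had the largest estimate among abundant granule genes, -0.20 ± 0.13 (SE, interval -0.48 to 0.08), with an exact permutation p of 0.254 over 252 assignments. *Neurod1* was at -0.15 ± 0.16, *Zic2* at -0.07 ± 0.15, *Barhl1* at -0.07 ± 0.19 and *Cbln3* at -0.01 ± 0.23 on the log2 scale. *Atoh1* (-0.27 ± 0.65, interval -1.68 to 1.15) and *Pcp2* (-1.17 ± 1.11, interval -3.63 to 1.29) were so variable that changes of more than 2-fold in either direction lay inside their intervals. *Car8* was at -0.18 ± 0.22 (SE), with an interval from -0.65 to 0.29 and an exact permutation p of 0.484.

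*Pcp4* had the smallest p of the set and, like *Cbln1*, an estimate that was higher in HT. Its mean was 2317 ± 394 in the HT mice and 1993 ± 92.6 in the WT mice (SD, n = 5 each), and the log2 fold change was 0.20 ± 0.09 (SE) with an interval from 0.0047 to 0.40. The unadjusted limma p was 0.0455 and the exact permutation p was 0.0159, and the adjusted limma p was 1.00, so *Pcp4* failed the correction. The estimate leaned on HT 4, the library that stood apart: without it the log2 fold change was 0.11 (unadjusted limma p 0.0512), and without HT 5 it was 0.23 (unadjusted limma p 0.0416). Over all alternatives the unadjusted limma p ran from 0.0023, with the trend on transcript length and GC content removed (log2 fold change 0.23), to 0.103, without WT 4 (0.18). The lowest adjusted limma p among them was 0.594.

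For 5 of the other genes (*Atoh1*, *Barhl1*, *Zic2*, *Cbln3* and *Car8*) the sign of the estimate turned without HT 5, while *Zic1*, *Neurod1*, *Cbln1* and *Pcp2* kept theirs. Without HT 5, 7 of the 10 estimates were higher in HT and 3 lower, and without HT 4, 9 of the 10 were lower. *Atoh1* went from -0.27 to 0.34 without HT 5 and to -0.67 without HT 4. *Pcp2* went from -1.17 to -0.04 without HT 5, and *Car8* from -0.18 to 0.03. *Zic1* stayed lower in HT in both cases, at -0.10 without HT 5 and -0.29 without HT 4 (unadjusted limma p 0.0467). None of the 10 had an adjusted p under 0.05 in any of these fits.

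**Figure D3:**
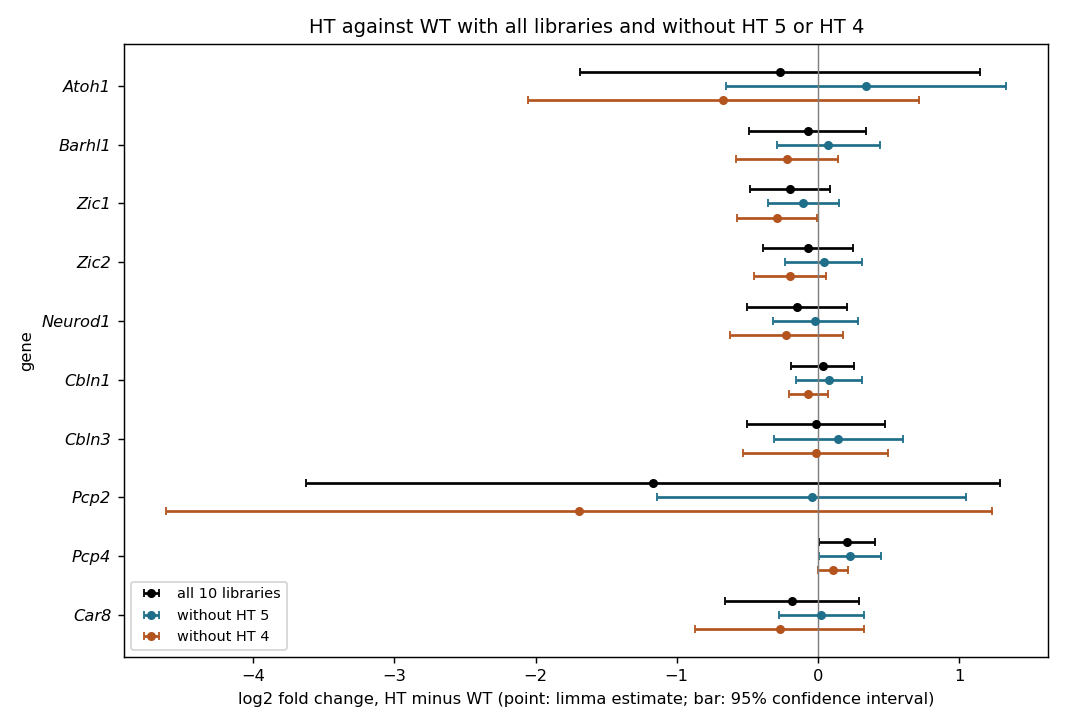
Log2 fold change of each gene (HT minus WT, point: limma estimate, bar: 95% confidence interval) with all 10 libraries, without HT 5 and without HT 4. The bars of *Atoh1* and *Pcp2* are the widest, and only *Pcp4* keeps its interval with all libraries above 0.

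Granule and Purkinje genes were set against each other with a score, the mean over a gene group of the log2 deviation from the gene means. The granule score was -0.05 ± 0.49 (SD, n = 5) in HT and 0.05 ± 0.27 in WT, and the Purkinje score was -0.19 ± 1.08 in HT and 0.19 ± 0.38 in WT. Both scores were lowest in HT 5 (-0.79 and -2.00) and highest in HT 4 (0.49 and 0.76). Granule minus Purkinje was 0.14 ± 0.61 in HT and -0.14 ± 0.17 in WT, a difference between groups of 0.28 that was smaller than the SD among HT libraries. In HT 5 alone the granule score exceeded the Purkinje score by 1.20, and in the other 4 HT libraries the balance ran from -0.27 to 0.08, inside the WT range of -0.30 to 0.13. Without HT 5 the difference between groups was 0.010. Without both HT 4 and HT 5 it was 0.058. With *Pcp2* left out of the Purkinje score it was -0.12. These values are a description, and the choice of HT 5 and of *Pcp2* followed from the data.

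Most of the genes rose and fell together across brains, and *Pcp4* did so least. Of the 45 pairs of genes, 30 had a Pearson r with an adjusted permutation p under 0.05 over 10 libraries, 32 had such a Spearman rho, and 29 had both, with Benjamini-Hochberg adjustment over the 45 pairs. The median r was 0.81. Both measures passed for 17 of 21 pairs within the granule genes, for 11 of 21 pairs of a granule with a Purkinje gene, and for 1 of 3 within the Purkinje genes. Of the 9 pairs with *Pcp4*, 0 passed in either measure (r from -0.07 to 0.73), and the median r of the other 36 pairs was 0.85. The 10 libraries share these genes' dissection and depth, and genes within a library are not independent. The share of passing pairs among all genes tested was not computed, so these counts do not set the genes apart from other genes.

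The closest pair was *Pcp2* with *Car8* (r 0.96 with an adjusted permutation p of 0.00127, rho 0.93 with 0.00180), which kept an r of 0.85 without the 2 libraries farthest from the median of *Pcp2*. *Pcp2* followed granule genes almost as closely: with *Neurod1* r was 0.90 (adjusted permutation p 0.000225) and rho 0.93 (0.00180), and r was 0.96 without the farthest 2 libraries. *Atoh1* with *Car8* gave r 0.95 (adjusted permutation p 0.00135) and rho 0.87 (0.00373), and r was 0.89 without the farthest 2. *Pcp2* with *Pcp4*, which share a cell type by name, gave r 0.12 (adjusted permutation p 0.703) and rho -0.05 (0.969).

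Of the 29 pairs, 27 kept an r over 0.5 without the 2 farthest libraries. The exceptions were *Atoh1* with *Barhl1* (0.46) and *Neurod1* with *Cbln3* (0.33), which rest on those libraries. Removing the group means left the shared variation in place: on deviations from the group means 34 of 45 pairs passed for Pearson r. These included 2 of the 9 pairs with *Pcp4*, with *Cbln1* (r 0.82, adjusted permutation p 0.0166) and with *Barhl1* (r 0.66, adjusted permutation p 0.0465). Without HT 4 the count was 33, with the trend on transcript length and GC content removed it was 32, and without HT 5, over 9 libraries, it was 21, with a median r of 0.73.

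**Figure D4:**
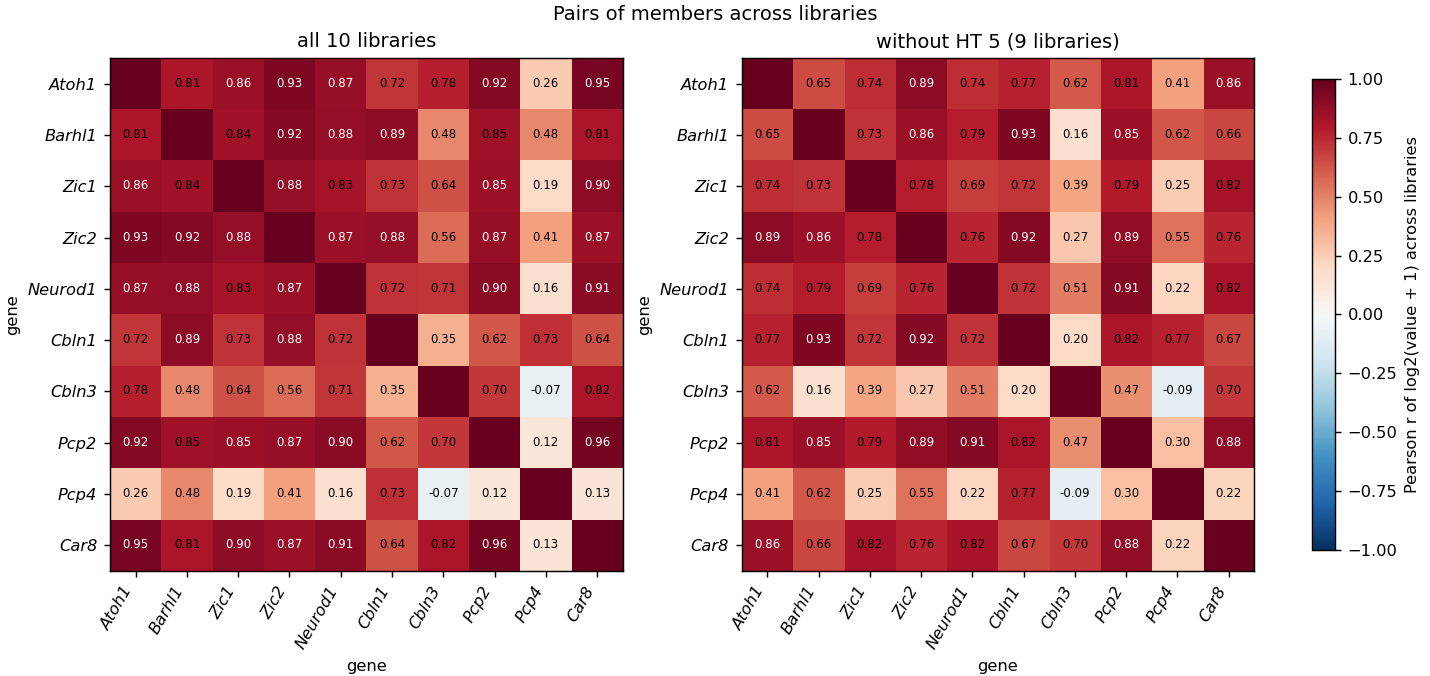
Pearson r of log2(value + 1) for each pair of genes over all 10 libraries (left) and over the 9 libraries without HT 5 (right). The row of *Pcp4* is pale except beside *Cbln1* (0.73 and 0.77), *Barhl1* (0.48 and 0.62) and *Zic2* (0.41 and 0.55), *Cbln3* turns paler without HT 5, while the other granule genes, *Pcp2* and *Car8* have r of at least 0.62 with one another on the left and 0.65 on the right.

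Other genes of the granule lineage had a list score of -0.43 in HT 5, the lowest of the 10 libraries, although HT 5 was the lowest library for only 8 of the 17 genes and their summed level there (30063) was above that of WT 2 (28916) and HT 4 (27695). Of 18 further granule lineage genes, 17 were in the table, and 0 of 17 passed the adjusted test in limma, with 3 estimates higher and 14 lower in HT and a median log2 fold change of -0.08 (-0.0074 over all genes tested). *Gabra6* was not analysed here. *Cntn2*, a surface adhesion protein of postmitotic granule precursors, had a log2 fold change of -0.16 ± 0.10. *Fat2*, a protocadherin of granule cells, was at 42.1 in HT 5 and at 129.5 to 325.9 in the other libraries, and *Nhlh1*, a helix-loop-helix factor of newborn granule neurons, at 16.8 against 51.96 to 140.3.

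The further Purkinje genes were lowest in HT 2 (score -0.16) and not in HT 5. Of 21 further Purkinje genes 0 passed, with 14 estimates higher and 7 lower and a median of 0.03, and their score in HT 5 was -0.09, against -2.00 for *Pcp2*, *Pcp4* and *Car8* together and -0.46 for *Pcp4* and *Car8* without *Pcp2*, whose value there is set by the pseudocount. *Homer3*, a postsynaptic scaffold, was at 367 ± 50.8 (SD, n = 5) in HT and 440.3 ± 32.7 in WT (log2 fold change -0.27 ± 0.10 (SE), unadjusted limma p 0.0155, adjusted 1.00). Many genes of this list are also expressed by forebrain neurons.

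The hedgehog pathway, by which Purkinje cells drive granule precursors to divide, had 0 of 15 genes past the adjusted test, with 12 estimates lower and 3 higher in HT and a median log2 fold change of -0.13. The signal transducer *Smo* was at 668 ± 72.1 (SD, n = 5) in HT and 768 ± 72.1 in WT, a log2 fold change of -0.20 ± 0.09 (SE, unadjusted limma p 0.0428), and the ligand-binding co-receptor *Boc* was at -0.20 ± 0.09 (unadjusted limma p 0.0472). Of 10 genes of the cerebellin synapse (cerebellins, their neurexin and GluD partners and relatives) 0 passed, with 5 estimates each way and a median of 0.02. *Cbln2*, the cerebellin of forebrain and other neurons, was at 1751 ± 77.2 (SD, n = 5) in HT and 1564 ± 73.9 in WT (log2 fold change 0.16 ± 0.05 (SE), unadjusted limma p 0.00777, adjusted 1.00, exact permutation p 0.0159). *Grid1*, a receptor for cerebellins, was at -0.12 ± 0.06.

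Lists of neighbouring regions and tissues gave the makeup of each library beside these values. Genes of the cerebellar territory and its other lineages (12 in the table, 11 tested) had 0 called and a median log2 fold change of 0.11; *Pax5* was at 0.24 ± 0.18 and *Gbx2* at 0.21 ± 0.15 (SE). Their score was -0.11 in HT 5, and lower in WT 2 (-0.55) and HT 2 (-0.34), and HT 5 was the lowest library for 3 of the 12. In HT 5 *En2*, the homeobox gene of midbrain and cerebellum, was at 141 against 193 to 389 in the others, and *Ptf1a*, the factor of GABAergic cerebellar progenitors, was listed at 0, with 0.875 in WT 2 and 1.12 in WT 4. The summed level of 13 *Hox* genes, which mark hindbrain and spinal cord behind the cerebellum, ran from 191 to 2141 in HT and from 62.7 to 1018 in WT, with HT 5 the highest library and WT 2 the lowest. The median log2 fold change of these 13 was 0.43 with all libraries and 0.04 without HT 5, and 0 were called. *Hoxa2* was at 0.76 ± 0.46 and *Hoxc5* at 0.72 ± 0.81 (SE), and *Hoxb4*, *Hoxd4* and *Hoxb8* were at 0 in at least 1 library.

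The forebrain sum of 16 genes was highest in HT 5 (34300.5) and lowest in HT 4 (23381), where the scores of the 7 granule and 3 Purkinje genes were highest, and ran from 29330.2 to 33865 in WT. In these 16 genes 0 were called, 13 estimates were lower in HT, and the median was -0.06, with *Fezf2* at -0.16 ± 0.09 (SE). The forebrain sum of HT 5 was above the highest WT sum by a small margin only. HT 5 thus held the fewest transcripts of most cerebellar genes of the set together with the highest forebrain and *Hox* sums. High *Hox* levels also occurred without this: HT 3 had a *Hox* score of 1.80 against 2.03 in HT 5, with a granule score of 0.00 and a Purkinje score of 0.17. The part of the regional makeup of the libraries in these differences was not tested.

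Tissue attached to the brain was followed with a pair of further lists. The meningeal sum of 9 genes ran from 6273 to 11176 in HT and from 7059.9 to 31726 in WT, with 0 called and a median of -0.06. *Aldh1a2*, the retinoic acid synthase of meninges, was at 0.18 ± 0.08 (unadjusted limma p 0.0442) and *Lum* at -0.47 ± 0.23 (SE). The 8 choroid plexus genes were all lower in HT in their estimates, with 0 called, 5 at an unadjusted limma p under 0.05 and a median log2 fold change of -0.47. *Ttr*, the thyroid hormone carrier of choroid plexus, was at 8118 ± 1190.3 (SD, n = 5) in HT and 11181 ± 1530.2 in WT (log2 fold change -0.46 ± 0.11 (SE), unadjusted limma p 0.00146, adjusted 1.00), and *Clic6* was at -0.52 ± 0.15. The summed choroid plexus level of every HT library (6955 to 9934) was below that of every WT library (10561 to 14280), but most of that sum was *Ttr*. On the list score, which weighs the genes equally, the groups overlapped: WT 1 (-0.15) was below HT 1 (-0.09) and HT 3 (-0.10). The other WT libraries were above every HT library on that score. The granule sums (6353 to 10845 in HT, 7989 to 10053 in WT) and the Purkinje sums (2764 to 4546 in HT, 3069 to 3706 in WT) overlapped.

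**Figure D5:**
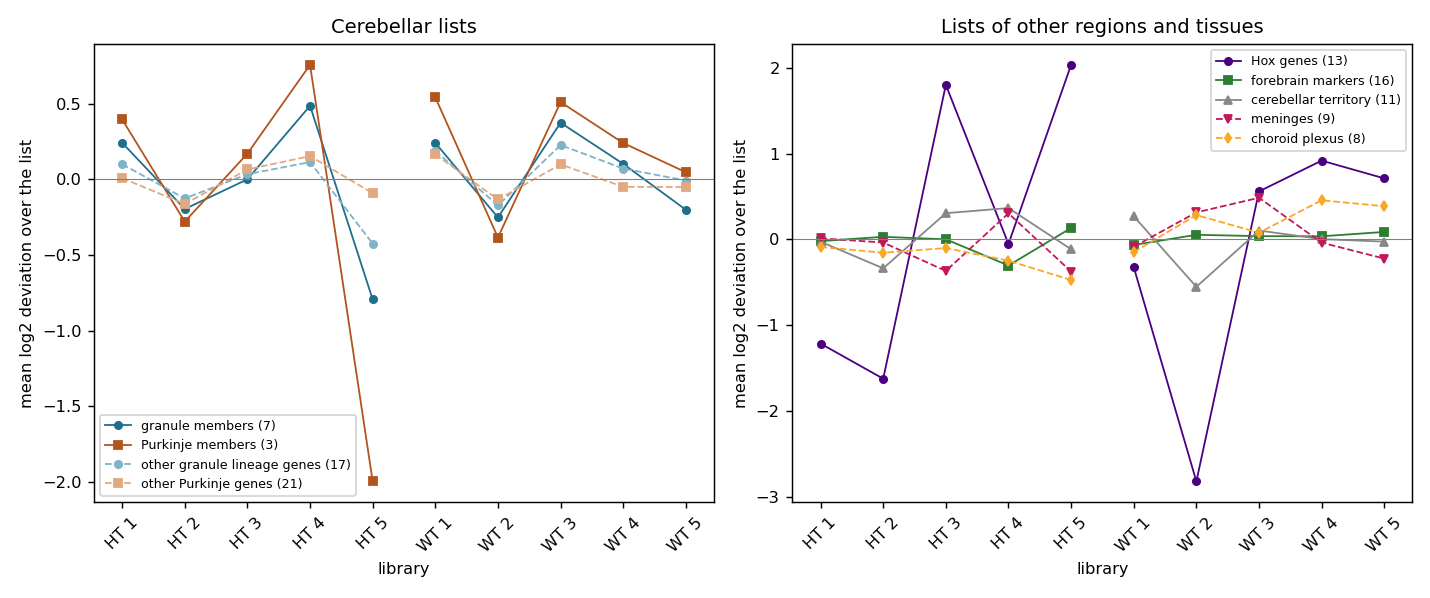
Mean log2 deviation from the gene means over each gene list (number of genes in brackets) in each library; the left panel holds the cerebellar lists and the right panel lists of other regions and tissues, and lines join the points of a list only to guide the eye. In HT 5 the Purkinje score is -2.00 and the granule score -0.79, while the *Hox* score is at 2.03; in HT 3 the *Hox* score is 1.80 with a Purkinje score of 0.17, and in WT 2 the cerebellar scores and the *Hox* score are all below 0.

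With the level of *Fat2* as a covariate, 6 of the 10 genotype estimates were higher in HT and 0 were called. In that fit *Pcp2* was at -0.39 (95% interval -0.96 to 0.18), *Atoh1* at 0.19 (-0.47 to 0.86) and *Car8* at -0.02 (-0.18 to 0.13). *Fat2* was chosen after the data were seen, is itself a granule gene and was among the genes most like the Purkinje score (Pearson r 0.97), so the fit of the members to it is no separate evidence.

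The genes outside the set whose pattern over the 10 libraries was most like the granule score were *Cdt1*, a licensing factor of DNA replication (Pearson r 0.98), *Unc5b*, a netrin receptor (0.97), *Nhlh1* (0.96), *En2* (0.95) and *Cdkn2c*, a cyclin-dependent kinase inhibitor (0.94). Without HT 5 these r were 0.95, 0.96, 0.92, 0.89 and 0.87. For the Purkinje score they were *Cnpy1*, a gene of the FGF8 domain at the midbrain-hindbrain boundary (0.98), *Fat2* (0.97), *Pdlim3* (0.96), *Nhlh1* (0.96) and *En2* (0.95), and without HT 5 they were 0.91, 0.86, 0.92, 0.87 and 0.96. All 8 of these genes had their lowest library in HT 5, and they were picked as the highest among all other genes tested, so the values are a description with no test.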

How the data were processed

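Poly-A RNA from the whole brain of 10 mice was sequenced, 5 HT and 5 WT, grouped by the sample labels. Per the labels and the study's methods, the authors estimated reads per gene with Salmon 1.1.0 on GRCm38 with GC correction, imported them with tximport and divided them by DESeq2 1.30.1 size factors. The deposited table holds that signal, 1 normalised read count per gene and library, and 0 columns belonged to no sample. The values were not whole multiples of 1 read, so count models were not run. The annotation release is not given in the sources used here. Of 18444 genes, 18431 matched GENCODE M21, the source of positions and lengths.

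Values were analysed as log2(value + 1), which understates changes of low genes. Genes with a mean of at least 10 (17020) were compared by limma-trend with a robust step (limma 3.58.1, R 4.3.3), two-sided and without covariates; p-values were adjusted over these genes by Benjamini-Hochberg and called under 0.05. Single genes also had a two-sided exact permutation test over 252 assignments, whose smallest p is 0.00794. Pairs of genes had permutation tests with 100000 resamples. Counting error was not modelled, and precision came from the spread between mice. The limma fit was tested on simulated data over 17020 genes, each drawn independently, where it called 0.0832% of unchanged genes.

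The members and all lists were chosen with earlier results of these data known. Named genes are the members, *Arid1b*, the 2 genes of smallest unadjusted p in each other list, and the 5 genes most like each score. Values of 3 single genes that this rule names are not reported here. *Fat2*, *Nhlh1*, *En2*, *Ptf1a* and the *Hox* genes at 0 were named after their values were seen.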

Additional observations from a re-analysis of the deposited data

Results flagged for a closer look

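In 26 groups of 5 values (each gene and each score, in HT and in WT) the gap of the most extreme library was compared with its group's range. Genes were taken as normalised read counts on the linear scale, and scores on the log2 scale. Past Dixon's critical value of 0.71 were 2 groups, where chance would give 1.3. *Cbln1* in HT was set apart by HT 4, at 2665 against 1764 to 2017 in the other 4 HT libraries. The gap was 0.718 of the linear range. As log2 deviations these were 0.42 against -0.17 to 0.02, and the gap on that scale was not computed. The granule minus Purkinje score in HT was set apart by HT 5, at 1.20 against -0.27 to 0.08 in the other 4 HT libraries, with a gap of 0.760 of the range. The Purkinje score without *Pcp2* put the balance of HT 5 at -0.34, against -0.14 to 0.15 in the other HT libraries. *Pcp2* in HT was not past the critical value on the linear scale (0.301, with HT 4 as the far library). HT 5 was at 0.279 and the other 4 HT libraries ran from 27.6 to 122.3. Its log2 deviation was -5.08 in HT 5 and -0.59 to 1.51 in the other 4, where the gap was not computed either.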

How the results depend on the processing

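No member was called under any alternative tried. Of all genes, 0 were called with all libraries and with pseudocounts of 0.5 and 10, no filter, a minimum mean of 100, upper-quartile or quantile scaling and no robust step. The count was 2 with sample weights, 2 with the length and GC trend removed, 1 with that trend removed together with the replicate block, and 2 without both HT 4 and HT 5 (chosen after seeing the data), and leaving out 1 library gave 0 to 2. The cause was not tested.

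Signs turned for *Atoh1*, *Barhl1*, *Zic2*, *Cbln1*, *Cbln3* and *Car8* under at least 1 alternative. *Cbln3* (-0.01) was at 0.012 under quantile normalization and at 0.011 with the length and GC trend removed, with or without the replicate block. *Cbln1* (0.03) was at -0.071 with sample weights. Without both HT 4 and HT 5, *Cbln3* was at 0.19, *Cbln1* at -0.038 and *Atoh1* at 0.012. With *Fat2* as a covariate (chosen after seeing the data), *Atoh1* was at 0.19, *Barhl1* at 0.044, *Zic2* at 0.020 and *Cbln3* at 0.12. Leaving out each library in turn gave log2 fold changes from -0.67 to 0.34 for *Atoh1*, -0.22 to 0.074 for *Barhl1*, -0.29 to -0.10 for *Zic1*, -0.20 to 0.041 for *Zic2*, -0.25 to -0.02 for *Neurod1*, -0.068 to 0.081 for *Cbln1*, -0.12 to 0.14 for *Cbln3*, -1.69 to -0.04 for *Pcp2*, 0.11 to 0.25 for *Pcp4* and -0.27 to 0.025 for *Car8*. The medians ran from -0.22 to 0.07 over the granule members and from -0.27 to 0.03 over the Purkinje members. With a minimum mean of 100 *Atoh1*, *Cbln3* and *Pcp2* were left out.

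The HT and WT libraries share replicate numbers. The correlations of their deviations were small, at 0.091, 0.084, 0.082, -0.10 and 0.093 for numbers 1 to 5, yet 4 of 5 matched their own number best. The labels do not say whether a number marks a shared litter or batch, and this was not tested. With the replicate block 0 genes were called (558 at an unadjusted p under 0.05, against 580), and 0 of 10 members were called. The unadjusted limma p of *Pcp4* rose from 0.0455 to 0.0791, and that of every other member fell. It went from 0.151 to 0.0507 for *Zic1*, from 0.419 to 0.137 for *Car8* and from 0.316 to 0.175 for *Pcp2*. In a balanced design the block leaves the log2 fold change (0.20 for *Pcp4*) as it is.

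Low values limit *Atoh1*, *Cbln3* and *Pcp2*: with a pseudocount of 10 the granule minus Purkinje difference was 0.12 in place of 0.28, and 0.32 with 0.5.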
